A study of Mus musculus with 8 samples.

Results

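The collagen genes of the mouse were read on 8 Agilent arrays of 1 colour, hybridised with RNA of neurospheres, floating clusters of neural stem and progenitor cells that were derived from mouse embryonic stem cells. A gene was a member when the transcript accession of its probe matched a RefSeq symbol made of Col, a number, the letter a and a number, a rule that uses no measured value. Of 19726 genes with a symbol on the array, 42 were members, read by 61 probes; RefSeq lists 44 such symbols, and Col6a3 and Col12a1 had no matched probe. Probes stayed in if both arrays of any 1 group read them well above background by the scanner's own flag, which left 13785 genes, 30 of them collagens, for testing. Of the other 12 members, 8 were well above background on no array (Col4a3, Col6a4, Col6a6, Col8a1, Col10a1, Col17a1, Col19a1 and Col24a1), and 4 were so on 1 or 2 arrays (Col6a5, Col9a3, Col13a1 and Col28a1). The tested members were 10 of 11 fibrillar collagens, 7 of 8 basement membrane collagens with their multiplexin relatives, 2 of 5 beaded filament collagens, 6 of 8 fibril-associated collagens (FACIT), 1 of 3 network collagens, 2 of 4 transmembrane collagens, and Col7a1 and Col26a1 of 3 others.

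The samples formed 4 groups of 2 arrays each. In all of them, control cells and cells overexpressing the transcription factor NFIA had grown together in mixed spheres and had been separated by fluorescence activated sorting before RNA was taken. PN_control and PN_NFIA were the control and NFIA cells of primary neurospheres (passage 0, day 6 after embryoid bodies), and SN_control and SN_NFIA those of secondary neurospheres (passage 1, day 12). The promoter driving NFIA, the strain of the cells and the number of clones are not given in the sources used here, and nothing says whether the 2 samples of a group came from separate cultures, so p-values measure only the spread between these samples, which may be technical. Passage number and days of culture cannot be told apart.

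Collagens are secreted or membrane proteins whose chains wind into triple helices, and a chain is usually released only when its partners are made in the same cell. Fibrillar collagens build the ropes of connective tissue, type IV collagen builds the sheet of the basement membrane under epithelia, vessels and meninges, and beaded filaments of type VI link cells to both. In the developing brain collagen is made mostly by meninges, vessel walls and their mural cells, while neuroepithelium is known to express Col2a1 and to rest on a type IV sheet; NFIA, of the nuclear factor I family, binds the sequence TTGGC and acts in the onset of astrocyte formation.

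The promoters of 6 members are shown because the results turn on them: Col4a1 and Col4a2 lie head to head, Col6a1 and Col6a2 encode partner chains and passed the test both for NFIA and for passage, and Col15a1 and Col27a1 passed the test for NFIA over both passages. Each is the RefSeq window (GRCm38.p6) from 250 bases before to 50 bases after a transcript start, 300 bases, 5′ to 3′ along the gene, with capitals marking matches on either strand to the NFI motif TTGGCA, the CCAAT box, the GC box GGGCGG and the TATA box TATAAA. The windows are chr8:11312777-11313076 (minus strand) for Col4a1, chr8:11312555-11312854 (plus) for Col4a2, chr10:76725995-76726294 (minus) for Col6a1, chr10:76623355-76623654 (minus, 1 of the windows of this gene) for Col6a2, chr4:47207762-47208061 (plus) for Col15a1 and chr4:63215162-63215461 (plus) for Col27a1.
Col4a1: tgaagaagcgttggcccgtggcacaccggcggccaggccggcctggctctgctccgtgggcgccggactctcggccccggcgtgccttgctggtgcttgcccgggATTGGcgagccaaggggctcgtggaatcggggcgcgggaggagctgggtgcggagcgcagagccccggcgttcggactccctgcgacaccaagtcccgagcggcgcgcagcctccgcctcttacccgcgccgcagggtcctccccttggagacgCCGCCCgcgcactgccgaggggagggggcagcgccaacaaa
Col4a2: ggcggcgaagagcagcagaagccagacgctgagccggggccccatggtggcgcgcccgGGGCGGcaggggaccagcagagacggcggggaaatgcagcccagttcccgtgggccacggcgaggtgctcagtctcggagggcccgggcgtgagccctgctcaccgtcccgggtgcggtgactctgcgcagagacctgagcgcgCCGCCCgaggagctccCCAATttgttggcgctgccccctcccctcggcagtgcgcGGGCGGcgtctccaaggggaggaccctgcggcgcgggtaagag
Col6a1: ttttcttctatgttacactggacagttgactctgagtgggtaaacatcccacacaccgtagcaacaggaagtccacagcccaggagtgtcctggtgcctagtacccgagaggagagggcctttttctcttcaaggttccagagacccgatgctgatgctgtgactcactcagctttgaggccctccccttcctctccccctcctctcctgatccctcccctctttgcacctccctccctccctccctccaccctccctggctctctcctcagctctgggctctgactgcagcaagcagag
Col6a2: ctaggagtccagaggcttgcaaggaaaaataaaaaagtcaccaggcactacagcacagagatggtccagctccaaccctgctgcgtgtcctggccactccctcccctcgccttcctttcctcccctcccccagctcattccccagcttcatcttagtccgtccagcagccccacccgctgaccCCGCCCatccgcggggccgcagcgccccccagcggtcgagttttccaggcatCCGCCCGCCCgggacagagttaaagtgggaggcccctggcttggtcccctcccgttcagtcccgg
Col15a1: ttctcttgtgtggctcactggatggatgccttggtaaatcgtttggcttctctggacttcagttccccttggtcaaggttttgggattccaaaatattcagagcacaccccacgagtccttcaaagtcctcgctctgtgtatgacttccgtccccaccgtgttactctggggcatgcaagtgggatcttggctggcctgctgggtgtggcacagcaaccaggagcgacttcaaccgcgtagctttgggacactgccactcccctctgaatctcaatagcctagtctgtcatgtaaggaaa
Col27a1: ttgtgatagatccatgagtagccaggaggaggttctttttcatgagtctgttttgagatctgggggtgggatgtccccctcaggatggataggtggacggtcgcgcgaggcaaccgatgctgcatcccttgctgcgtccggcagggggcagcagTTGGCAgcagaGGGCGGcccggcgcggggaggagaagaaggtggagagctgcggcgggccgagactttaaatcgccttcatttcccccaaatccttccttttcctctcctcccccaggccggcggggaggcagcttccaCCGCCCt

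The windows of Col4a1 and Col4a2 share 78 bases, chr8:11312777-11312854, read on opposite strands. In the window of Col27a1 the motif TTGGCA stands at position -96 from the start, and the windows of Col15a1 and Col6a1 held none of the 4 marked motifs. TTGGC followed by another base than A was not marked, and the windows of Col4a1, Col4a2 and Col15a1 hold it. RefSeq windows were found for 34 of 42 members, 37 windows in all. The palindrome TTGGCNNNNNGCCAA, the full NFI site, was in 0 of 37 collagen windows and in 0.0365% of all 32851 windows. The shorter TTGGCA, which can overlap a CCAAT box on the other strand, was in 18.9% of collagen windows and 14.1% of all windows, CCAAT in 35.1% and 37.4%, GGGCGG in 62.2% and 35.7%, and TATAAA in 13.5% and 13.6%. The median GC content was 60.0% in the collagen windows and 52.7% in all windows. These are matches of letters in the windows and carry no measure of binding.

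The arrays were placed before any comparison was made. Each column of the deposited value table, which carries the sample titles, matched exactly 1 scanner file (lowest correlation over probes 0.99997, next best file at most 0.339), but for 7 of 8 samples that file was attached to another sample; values here follow the titles. The source names conflict with the titles: all 4 control samples are described there as the NFIA line, and PN_NFIA 1 and SN_NFIA 2 as wild type. With the arrays as attached, or with groups from the source names, limma passed no gene of any kind in any of the 7 comparisons. It thus passed 0 collagens in each, with 0 to 2 as attached and 0 to 17 by the source names at an unadjusted p under 0.05. Without the 2 NFIA arrays described as wild type, which leaves 1 NFIA array a passage that is assumed to vary like the others, 0 passed in each again, with 5 to 18 at an unadjusted p under 0.05.

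All 8 arrays lay on 1 slide, with 45.4% to 56.4% of probes well above background and 0 saturated. Nfia, the overexpressed gene, had 2 probes, both well above background on all arrays. Its brighter probe read -1.15 and -0.15 on the PN_control arrays, -0.07 and 1.08 in PN_NFIA, 1.15 and 0.80 in SN_control and 1.86 and 1.81 in SN_NFIA, in log2 of the signal minus the 75th percentile of the array, the scale of all levels below. NFIA minus control was 1.15 in primary and 0.86 in secondary neurospheres by this probe, and 2.06 and 1.85 by the dimmer one. The difference of the brighter probe over both passages, 1.01 ± 0.32 (SE), did not pass the test (limma, adjusted p = 0.167), and whether the probes read the transgene is not known. All 10 neural progenitor markers, among them Sox1, Sox2, Nes and Fabp7, were well above background on all 8 arrays.

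Markers of other cell types were also present. All 14 mesenchymal markers were well above background on at least 1 array, and their summed signal, in units of the 75th percentile, was 6.48 and 5.42 in PN_control, 13.4 and 12.6 in PN_NFIA, 16.8 and 46.4 in SN_control and 20.1 and 37.8 in SN_NFIA. Of 8 endothelial markers, Tek and Tie1 were well above background on no array, and the sum (12.7 to 22.5) was carried by Kdr. Of 12 endoderm and yolk sac markers, 11 were well above background on PN_NFIA 1 and 3 to 7 on each other array. The 6 neural crest and Schwann cell markers used here summed to 23.0 in SN_control 2 and 15.7 in SN_NFIA 2 against 3.92 to 13.3 on the other 6 arrays. Sox10 of that list, which oligodendrocyte precursors make too, read 4.07 and 3.27 on those 2 arrays and -3.07 to -0.22 on the others. Erbb3 of the same list, and Acan, Matn1, Matn3, Hapln1 and Cytl1 among 8 cartilage markers, were well above background on no array. In these bulk samples fewer cells of a type and less RNA per cell cannot be told apart.

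**Figure D1:**
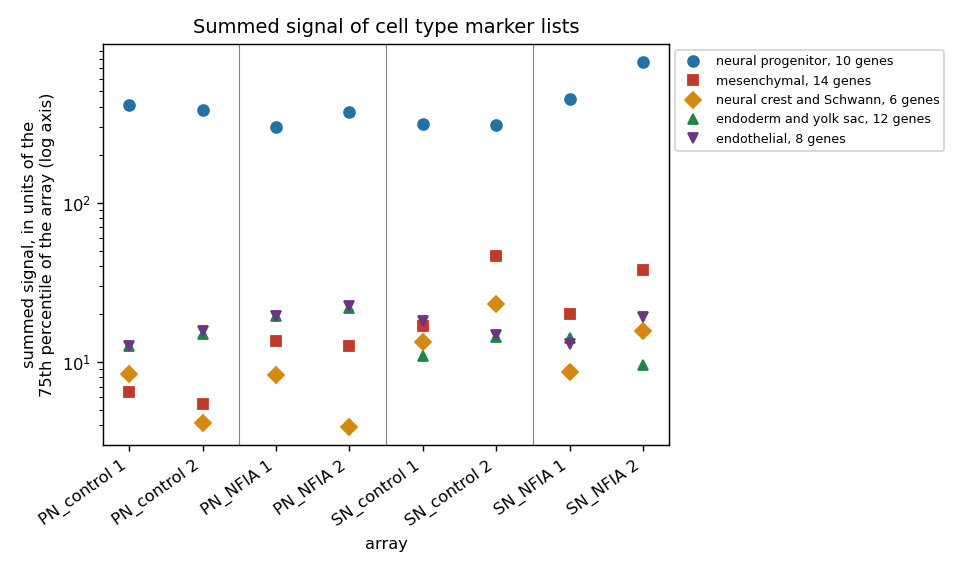
Summed signal of 5 marker lists on each of the 8 arrays, in units of the 75th percentile of the array, on a log axis; each point is 1 list on 1 array. The mesenchymal sum is 5.42 to 6.48 on the PN_control arrays and 12.6 to 46.4 on the other 6, and the neural crest and Schwann sum is highest, 23.0, on SN_control 2.

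Across the 4 groups, the level of most collagens was lowest in control cells of primary neurospheres. Of the 30 tested members, 25 had their lowest group mean in PN_control (83.3%, against 23.9% of all 13785 tested genes). The exceptions were Col22a1 and Col25a1 (lowest in SN_control), Col2a1 and Col18a1 (lowest in SN_NFIA) and Col4a4 (lowest in PN_NFIA). The highest group mean lay in SN_control for 14 members (13.2% of all genes), in SN_NFIA for 11 (31.2%), in PN_NFIA for 3 (17.9%) and in PN_control for 2 (37.7%).

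**Figure D2:**
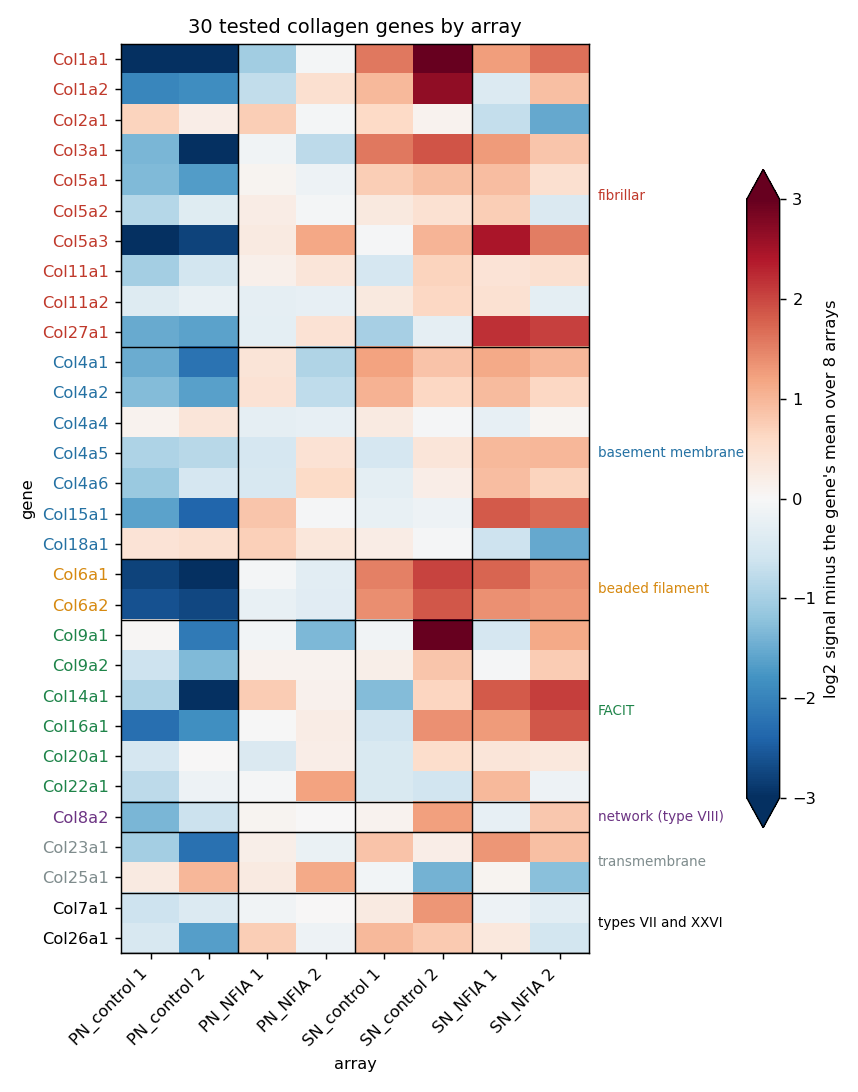
Each row is 1 of the 30 tested collagen genes and each column 1 array; colour gives the log2 signal minus the gene's own mean over the 8 arrays, with the scale ending at -3 and 3. Rows are ordered by class; the 2 PN_control columns hold the lowest group mean for 25 of the 30 genes.

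In control cells, SN_control against PN_control, 4 of 10 fibrillar collagens (Col1a1, Col3a1, Col5a1 and Col5a3) and both beaded filament collagens (Col6a1 and Col6a2) rose with passage. These 6 of 30 passed the test (limma, Benjamini-Hochberg over 13785 genes, adjusted p under 0.05), where 0.783% of all genes passed, 0.682% higher and 0.102% lower. The median difference of the 30 was 1.70 on the log2 scale, against -0.11 for all genes. At an unadjusted p under 0.05 there were 19 of 30, against 13.3% of all genes. Positive differences were found for 25 (40.4% of all genes), 22 had both SN_control arrays above both PN_control arrays (16.4%), and 2, Col18a1 and Col25a1, had both below (26.0%). A dimmer kept probe of Col18a1, well above background on all arrays, read 2.43 and 2.65 in PN_control but 2.88 and 2.70 in SN_control.

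Col1a1 (chr11:94936224-94953042), the main chain of type I collagen of skin and bone, read -2.33 and -2.29 on the PN_control arrays, -0.16 and 0.83 in PN_NFIA, 2.45 and 3.86 in SN_control and 2.14 and 2.53 in SN_NFIA. Both controls of primary neurospheres lay below every other array, and the other groups did not overlap except SN_control and SN_NFIA. The rise in control cells was 5.47 ± 0.52 (SE) on the log2 scale, or 44.2-fold (adjusted p = 0.0122). Col1a2, its partner chain in the type I heterotrimer, read 0.36 and 0.45, 1.57 and 2.80, 3.29 and 4.97, and 1.91 and 3.21 in the same order of groups. Its difference with passage in control cells was 3.73 ± 0.69 and missed the test (adjusted p = 0.0773).

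Col3a1, the fibrillar collagen of vessel walls and soft tissue, read 2.16 and 0.19 in PN_control, 3.41 and 2.73 in PN_NFIA, 5.10 and 5.41 in SN_control and 4.80 and 4.35 in SN_NFIA. The 2 PN_control arrays were far apart, yet both lay below all others, and the rise of 4.08 ± 0.61 passed (adjusted p = 0.0424). Col5a1, the chain of the type V collagen that starts type I fibrils, read 0.88 and 0.52, 2.28 and 2.05, 2.95 and 3.11, and 3.14 and 2.69 in the same order. It rose by 2.33 ± 0.27 (adjusted p = 0.0182) with little gap between replicates, at most 0.45 on the log2 scale. Col5a3, a rarer type V chain, was not well above background on either PN_control array (-6.24 and -5.40), and read -2.36 and -1.47 in PN_NFIA, -2.67 and -1.61 in SN_control and -0.19 and -1.09 in SN_NFIA. Its measured rise was thus at least 4.13-fold, a bound set by the lowest signal well above background on the dim arrays (fitted adjusted p = 0.0412). Col5a2, with -2.19 and -1.69 in PN_control, -1.10 and -1.40 in PN_NFIA, -1.02 and -0.87 in SN_control and -0.59 and -1.76 in SN_NFIA, did not pass (1.00 ± 0.41, adjusted p = 0.368).

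Col6a1 and Col6a2 encode chains of the type VI heterotrimer and lie 85161 bases apart on chr10. Col6a1 read -1.31 and -2.04 in PN_control, 1.40 and 1.14 in PN_NFIA, 2.98 and 3.48 in SN_control and 3.20 and 2.83 in SN_NFIA. PN_control, PN_NFIA and the secondary neurospheres formed 3 separate steps, and the rise in control cells was 4.91 ± 0.34 or 30.0-fold (adjusted p = 0.00442). Col6a2 had the same steps, with -4.29 and -4.42, -1.91 and -2.02, -0.29 and 0.19, and -0.32 and -0.39, and rose at least 17.6-fold since its PN_control values were not well above background (adjusted p = 0.00211). The other beaded filament members on the array, Col6a4, Col6a5 and Col6a6, were not tested.

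Of the 7 basement membrane members, 0 passed in control cells by limma, which gave 3 an unadjusted p under 0.05, and 5 of 7 had both SN_control arrays above both PN_control arrays. Col4a1, a chain of the common type IV network, read 0.35 and -0.38 in PN_control, 2.21 and 0.92 in PN_NFIA, 3.04 and 2.68 in SN_control and 2.96 and 2.83 in SN_NFIA. Its difference was 2.88 ± 0.46 (adjusted p = 0.0510). Col4a2, its partner and head-to-head neighbour (transcribed regions overlapping by 85 bases), read -0.01 and -0.34, 1.72 and 0.53, 2.34 and 1.90, and 2.22 and 1.90, with a difference of 2.30 ± 0.42 (adjusted p = 0.0742). In both genes the secondary arrays lay above all primary arrays, and PN_NFIA 1 lay above PN_NFIA 2. The FACIT members also had 0 of 6 past limma's test (2 at an unadjusted p under 0.05), with differences from -0.04 for Col22a1 to 2.49 ± 1.17 for Col9a1 (adjusted p = 0.978 and 0.420).

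Of 14 mesenchymal markers, 2 passed limma's test for passage in control cells, Pdgfrb, which rose by 3.12, and S100a4, by 5.78 (adjusted p = 0.0157 and 0.0424). Of all genes, 0.682% passed as higher. Both SN_control arrays lay above both PN_control arrays for 9 of the 14 (16.4% of all genes) and below for 2, Foxd1 and Tagln (26.0%). The part of mesenchymal cells in the result was not tested. Pax6, 1 of 10 neural progenitor markers, fell by 2.73 in the same comparison (adjusted p = 0.0182). The count of 6 was 2 without PN_control 2 and 3 without PN_control 1 or without SN_control 2. In a limma fit of the 2 groups alone it was 0, with 18 at an unadjusted p under 0.05. That fit passed 0 of all 13785 genes.

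In NFIA cells, SN_NFIA against PN_NFIA, Col6a2 and Col27a1 rose with passage, 2 of 30 past the test, where 1.66% of all genes passed, 0.501% higher and 1.16% lower. The median difference was 0.75 against -0.04 for all genes, and 14 had an unadjusted p under 0.05 (21.2% of all genes). Positive differences were found for 24 members (47.7% of all genes), with both arrays above for 17 (26.4%) and both below for 4 (30.6%). Col6a2 rose by 1.61 ± 0.25 (3.05-fold, adjusted p = 0.0394). Col27a1, a fibrillar collagen of cartilage and developing tissue with a shortened triple helix, rose by 2.05 ± 0.35 (4.15-fold, adjusted p = 0.0460). Col6a1 reached 1.75 ± 0.34 (adjusted p = 0.0583) and Col1a1 2.01 ± 0.52 (adjusted p = 0.0983). Col18a1, which encodes the multiplexin that yields endostatin, read 4.06 and 3.69 in PN_NFIA and 2.73 and 1.82 in SN_NFIA, a difference of -1.60 ± 0.35 that did not pass (adjusted p = 0.0697). The smooth muscle and mesenchymal marker Tagln fell by 1.72 on the log2 scale here (adjusted p = 0.0297). It alone of 14 mesenchymal markers passed, where 1.16% of all genes passed as lower. Of the 14, 8 had positive differences (47.7% of all genes), and their median was 0.44. Of 8 pluripotent cell markers, Dppa5a, Esrrb and Fgf4 fell by 3.54, 2.51 and 2.83 (adjusted p = 0.0394, 0.0247 and 0.0223). Their list summed to 92.5 and 58.6 in PN_NFIA and 9.01 and 33.1 in SN_NFIA, against 46.0 and 46.4 in PN_control and 27.4 and 49.8 in SN_control. The part of these markers in the result was not tested. The count was 0 without any 1 of the PN_control, PN_NFIA or SN_NFIA arrays, 4 without SN_control 1 or SN_control 2, and 0 in a limma fit of the 2 groups alone (15 at an unadjusted p under 0.05).

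Over both cell types, with terms for NFIA and passage, 12 of 30 collagens passed for secondary against primary neurospheres, all higher, where 7.09% of all genes passed, 3.44% higher and 3.66% lower. They were 5 of 10 fibrillar (Col1a1, Col3a1, Col5a1, Col5a3 and Col27a1), 3 of 7 basement membrane (Col4a1, Col4a2 and Col15a1), both beaded filament members, Col16a1 of the FACIT class and Col23a1 of the transmembrane class. Their differences ran from 1.49 for Col27a1 to 3.74 for Col1a1 on the log2 scale, with adjusted p from 0.0229 to 0.0427. In 8 of the 30, all 4 secondary arrays lay above all 4 primary arrays (4.55% of all genes), and in 2, Col18a1 and Col25a1, all lay below (7.63%). By the dimmer Col18a1 probe the primary and secondary arrays overlapped, with a difference of -0.45 against -0.98 by the brighter one. The median difference was 1.22 against -0.07, with 26 positive (43.6% of all genes) and 20 at an unadjusted p under 0.05 (26.0%).

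Col4a1 rose by 2.10 ± 0.41 (4.30-fold, adjusted p = 0.0307) and Col4a2 by 1.62 ± 0.37 (3.07-fold, adjusted p = 0.0427). Col23a1, a membrane-spanning collagen, read -2.19 and -3.40 in PN_control, -0.999 and -1.36 in PN_NFIA, -0.32 and -0.97 in SN_control and 0.15 and -0.26 in SN_NFIA. All secondary arrays lay above all primary ones, and the rise was 1.64 ± 0.35 (adjusted p = 0.0374); its 3 kept probes gave 1.50 to 1.89. Col16a1, a FACIT collagen at the border of fibrils and basement membranes, read -0.89 and -0.47, 1.36 and 1.59, 0.80 and 2.74, and 2.64 and 3.23 in the order of groups above. Its primary and secondary arrays overlapped through SN_control 1, and it rose by 1.96 ± 0.44 (adjusted p = 0.0406). The count was 9 without SN_control 1, 5 without SN_control 2, 4 without SN_NFIA 2, 3 without PN_NFIA 1, 2 without PN_NFIA 2, 1 without SN_NFIA 1 and 0 without either PN_control array. Pdgfra, S100a4, Tbx18 and Thy1 of the mesenchymal list rose in the same comparison, by 2.72 to 4.44, as did Ets1 of the neural crest list, by 1.80. Tfap2b of that list, Pax6 and the pluripotency factor Esrrb fell by 2.35, 2.14 and 1.71, and the part of all these markers was not tested. Among the primary arrays Tbx18 was well above background on PN_NFIA 2 alone, so it stayed in for testing only through the secondary groups.

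**Figure D3:**
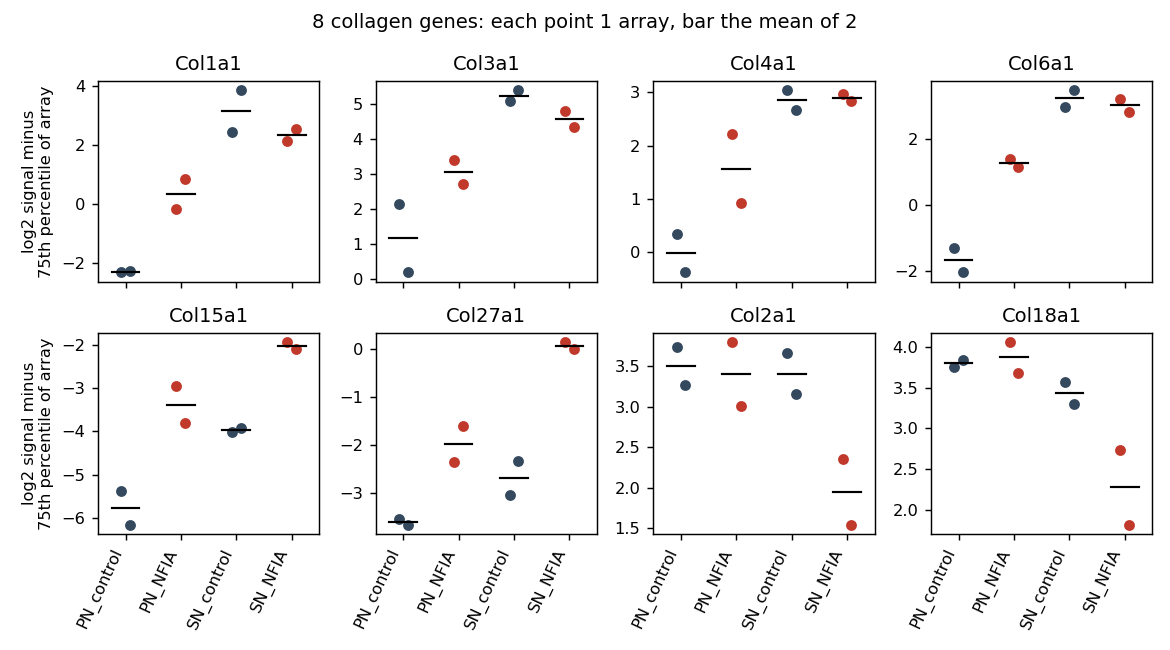
Levels of 8 collagen genes, in log2 signal minus the 75th percentile of the array, with 1 point for each array (dark, control; red, NFIA) and a bar at the mean of the 2. Col1a1, Col3a1, Col4a1 and Col6a1 are lowest in PN_control and highest in secondary neurospheres, Col15a1 and Col27a1 are highest in SN_NFIA, and Col2a1 and Col18a1 are lowest in SN_NFIA.

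In primary neurospheres the NFIA cells had a higher mean level of 28 of 30 collagens than the control cells, and both beaded filament chains passed the test. Col6a1 rose by 2.94 ± 0.34 (7.70-fold, adjusted p = 0.0282), and Col6a2 rose at least 4.67-fold (adjusted p = 0.0261). These were 2 of 30 members, where 0.305% of all genes passed, all of them higher (0.0% lower). Positive differences were found for 43.4% of all genes. Both PN_NFIA arrays lay above both PN_control arrays for 23 collagens (22.5% of all genes) and below for 1 (29.0%), and 17 had an unadjusted p under 0.05 (9.45%). The median was 1.18 against -0.07. By class the median was 1.55 for the 10 fibrillar, 0.86 for the 7 basement membrane and 1.06 for the 6 FACIT members. The same PN_control arrays serve as the baseline of passage in control cells.

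Col5a3 was not well above background on either PN_control array, so its measured difference was at least 4.84-fold (fitted 3.91 ± 0.54, adjusted p = 0.0513). Col1a1 stood at 2.64 ± 0.52 (adjusted p = 0.122), Col3a1 at 1.90 ± 0.61 (adjusted p = 0.364) and Col4a1 at 1.58 ± 0.46 (adjusted p = 0.300). None of these 4 passed, although the arrays of the 2 groups did not overlap in any of them. Col2a1, Col11a2, Col18a1, Col20a1, Col9a1 and Col25a1 had overlapping arrays, and Col4a4, the chain of the kidney-type network, had both PN_NFIA arrays below both controls (-0.49 ± 0.25, adjusted p = 0.640). Col4a4 was well above background on both PN_control arrays but on only 1 PN_NFIA array and no secondary array. Its probe thus stayed in for testing only through PN_control.

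The mesenchymal sum was 12.6 to 13.4 in PN_NFIA against 5.42 to 6.48 in PN_control, and the endoderm and yolk sac sum was 19.3 and 21.7 against 12.6 and 15.0. This last sum was mostly carried by Foxa2, which read 3.75 and 4.30 in PN_NFIA and 3.51 and 3.84 in PN_control. The part of these markers in the result was not tested. Without PN_NFIA 1, Col6a1 and Col6a2 had values of the same sign, and 0 collagens passed. The count was also 0 without PN_NFIA 2, either PN_control array or either SN_NFIA array, and 4 in a fit of the 2 groups alone.

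In secondary neurospheres the collagens did not share a direction. Col27a1 alone passed, higher in NFIA cells, 1 of 30 where 0.878% of all genes passed, 0.464% higher and 0.413% lower. It read -3.55 and -3.66 in PN_control, -2.35 and -1.61 in PN_NFIA, -3.04 and -2.33 in SN_control and 0.14 and 0.00 in SN_NFIA. The SN_NFIA arrays stood above all others, and the rise was 2.76 ± 0.35 (6.76-fold, adjusted p = 0.0300). Only 1 of the SN_control arrays was well above background for this gene. Positive differences were found for 13 of 30 members (49.2% of all genes), with 8 above and 7 below on both arrays (19.4% and 19.6% of all genes), and 8 had an unadjusted p under 0.05 (15.1%). The median was -0.13 against -0.01. Only 3 of the 10 fibrillar members were positive, Col5a3 (1.50 ± 0.54), Col11a1 (0.37 ± 0.40) and Col27a1.

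Below control on both SN_NFIA arrays, but not past the test, were Col1a2, Col2a1, Col3a1, Col6a2, Col7a1, Col18a1 and Col26a1. Col2a1, the fibrillar collagen of cartilage that neuroepithelium also makes, read 3.74 and 3.27 in PN_control, 3.80 and 3.01 in PN_NFIA, 3.66 and 3.16 in SN_control and 2.36 and 1.54 in SN_NFIA. Both SN_NFIA arrays lay below all others, with a difference from SN_control of -1.46 ± 0.41 (adjusted p = 0.158). Col18a1 read 3.76 and 3.84, 4.06 and 3.69, 3.57 and 3.31, and 2.73 and 1.82, again with SN_NFIA lowest (-1.16 ± 0.35, adjusted p = 0.178). The count was 0 without either SN_NFIA array, either PN_control array or SN_control 1, 2 without SN_control 2, and 0 in a limma fit of the 2 groups alone (7 at an unadjusted p under 0.05). That fit of the 2 groups passed 0 of all 13785 genes. The high Sox10 level of SN_control 2 and SN_NFIA 2 lay within this comparison. Fgf4 of the pluripotent list fell by 2.29 (adjusted p = 0.0361), and Sox7 of the endoderm and yolk sac list rose at least 1.67-fold (fitted adjusted p = 0.0287). Of the 7 tested endoderm and yolk sac markers, 3 had positive differences (49.2% of all genes), with a median of -0.28. The part of these markers was not tested.

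Over both passages, with passage as a term of the fit, Col15a1 and Col27a1 were higher in NFIA cells, 2 of 30 collagens where 1.99% of all genes passed, 1.81% higher and 0.181% lower. Col15a1, the multiplexin at the border of basement membranes and fibrils, read -5.39 and -6.16 in PN_control, -2.94 and -3.81 in PN_NFIA, -4.01 and -3.93 in SN_control and -1.93 and -2.09 in SN_NFIA. All NFIA arrays lay above all control arrays, and none of the 4 control values was well above background. Its probe stayed in for testing only through the NFIA groups, whose arrays were all well above background, so its call is not free of that rule. The fitted difference was 2.18 ± 0.26 (adjusted p = 0.0131), and the measured one at least 2.003-fold. Within primary neurospheres the measured difference was at least 1.75-fold (fitted 2.40 ± 0.38, adjusted p = 0.0740), and within secondary neurospheres at least 2.29-fold (fitted 1.95 ± 0.38, adjusted p = 0.0717). Its other 2 probes, well above background on 1 array each, gave fitted differences of 0.82 and 1.63 over both passages. Col27a1 rose by 2.19 ± 0.31 (4.57-fold, adjusted p = 0.0181), although the lowest NFIA array, PN_NFIA 1, overlapped SN_control 2.

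The median over the 30 members was 0.65 with 24 positive, against -0.04 and 45.4% over all genes, and 10 had an unadjusted p under 0.05 (17.6%). Col5a3 (2.70 ± 0.56, adjusted p = 0.0604) and Col14a1 (2.40 ± 0.57, adjusted p = 0.0849) did not pass. Col14a1, a FACIT collagen of tendon and skin, read -3.42 and -5.71, -1.75 and -2.36, -3.81 and -1.86, and -0.65 and -0.44, with NFIA above control within each passage. Only 1 array each of PN_control and SN_control was well above background for it, so its probe too stayed in for testing only through the NFIA groups. A dimmer probe gave 0.48 over both passages. Col22a1, a FACIT member of tissue junctions, read 0.94 and 1.57, 1.69 and 2.93, 1.28 and 1.16, and 2.70 and 1.59. It was the other collagen besides Col15a1 with all NFIA arrays above all controls (0.99 ± 0.35, adjusted p = 0.208), where 3.68% of all genes were so and 2.07% had all NFIA arrays below. Acta2 and Prrx1 of the mesenchymal list were higher in NFIA cells too (1.70 and 1.89, adjusted p = 0.0432 and 0.0157). So were the endothelial marker Emcn, at least 1.49-fold (fitted adjusted p = 0.0282), and Sox7 and Cubn of the endoderm and yolk sac list, at least 1.48-fold and by 1.28 (adjusted p = 0.0118 and 0.0490). Emcn and Sox7 were well above background on the 4 NFIA arrays and on no control array, so they too stayed in only through the NFIA groups. The part of these markers was not tested. The count was 6 without SN_control 2, 1 without PN_NFIA 2 or SN_NFIA 2, and 0 without SN_NFIA 1.

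**Figure D4:**
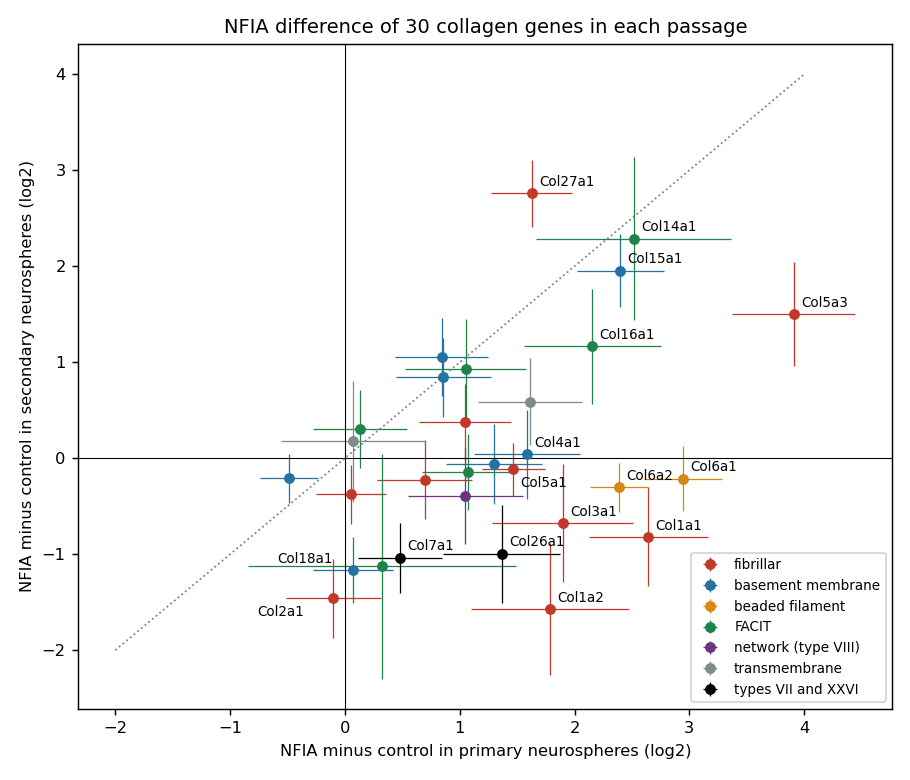
NFIA minus control in primary (x axis) and secondary (y axis) neurospheres for the 30 tested collagen genes, in log2, with bars of 1 SE and colour by class; the dotted line marks equal differences. Points lie to the right of 0 for 28 genes and above 0 for 13, with Col27a1 at 2.76 and Col1a2 at -1.57 on the y axis.

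Whether the NFIA difference varied between the 2 passages was tested as an interaction, the NFIA difference in secondary minus that in primary neurospheres. It was positive for 5 of 30 collagens (53.7% of all genes) and negative for 25, with a median of -1.22 against 0.04 over all genes. No collagen and no gene passed this test (0 of 13785 genes, 0.0%). At an unadjusted p under 0.05 limma called 10 of 30 collagens and 6.54% of all genes. The interaction was -3.16 ± 0.48 for Col6a1 (adjusted p = 0.155) and -3.46 ± 0.73 for Col1a1 (adjusted p = 0.271). For Col6a2 the fitted value of -2.69 ± 0.36 (adjusted p = 0.124) rests on PN_control values that were not well above background. Col1a2, Col3a1, Col6a2, Col7a1 and Col26a1 had both NFIA arrays above both controls in primary and below both in secondary neurospheres, 5 of 30 where 2.04% of all genes had this pattern. The opposite pattern was held by 0 collagens and 2.56% of all genes. Col7a1, the anchoring fibril collagen of skin, read 0.45 and 0.67, 0.98 and 1.10, 1.34 and 2.41, and 0.92 and 0.76, and Col26a1 read 2.50 and 1.32, 3.72 and 2.82, 3.94 and 3.76, and 3.30 and 2.41. Their differences between passages did not pass (adjusted p = 0.504 for Col1a2, 0.616 for Col7a1 and 0.536 for Col26a1).

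**Figure D5:**
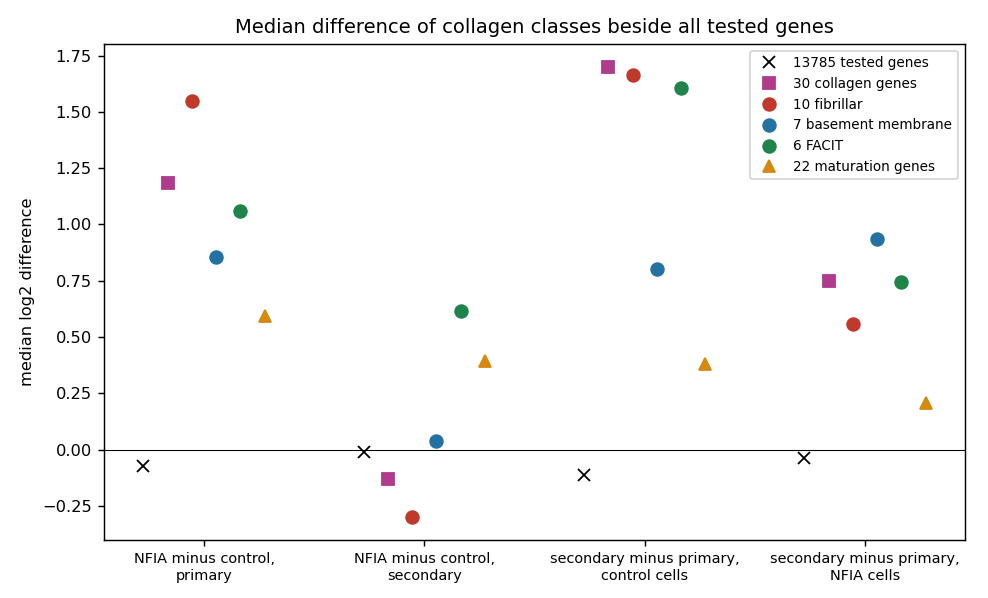
Median log2 difference of the 30 collagens, of 3 classes and of 22 maturation genes in 4 comparisons, beside the median of all 13785 tested genes (crosses). The collagen median is 1.18 for NFIA in primary and -0.13 in secondary neurospheres, and 1.70 and 0.75 for passage in control and NFIA cells.

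The members described last did not pass in any comparison. Col4a5 and Col4a6, head-to-head neighbours on chrX 1274 bases apart that encode chains of the same type IV network, read 0.22, 0.31, 0.64, 1.59, 0.64, 1.50, 2.13 and 2.13, and -1.14, -0.55, -0.52, 0.54, -0.32, 0.18, 0.90 and 0.64, over the 8 arrays in the order of groups above. NFIA minus control over both passages was 0.95 ± 0.27 for Col4a5 (adjusted p = 0.134) and 0.85 ± 0.28 for Col4a6 (adjusted p = 0.176); a dimmer probe of Col4a6 gave 0.28. Col4a4 stayed between -4.17 and -3.53 on all arrays, and only 3 of them, all primary, were well above background. Col11a1, partner of Col2a1 in cartilage fibrils, read -0.94 and -0.47, 0.23 and 0.45, -0.41 and 0.74, and 0.50 and 0.57. Col11a2, of the same fibrils, ranged from -3.18 to -2.16.

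Col9a1, a FACIT chain of cartilage, vitreous and glia, had wide gaps between replicates. It read -1.22 and -3.37 in PN_control, -1.34 and -2.61 in PN_NFIA, -1.36 and 1.74 in SN_control and -1.75 and -0.11 in SN_NFIA. The gap of 3.10 between the SN_control arrays was the largest of any tested collagen, and both arrays numbered 2 of the secondary neurospheres, which carried the high Sox10 levels, were the higher of their pair. Col9a2, another type IX chain, read -0.74 and -1.44, -0.02 and -0.02, 0.06 and 0.72, and -0.15 and 0.64, likewise higher on those arrays. Col25a1, a neuronal membrane collagen, read 0.04 and 0.78, 0.04 and 0.91, -0.31 and -1.64, and -0.13 and -1.47, lower on them. Within groups the median gap between the 2 arrays over the 30 members was 0.43 to 0.66, and SN_control had 10 members with a gap above 1 against 5 or 6 in the other groups. Col25a1 was lower in all 4 secondary arrays than in all 4 primary arrays (-1.33 ± 0.42, adjusted p = 0.0951), and its 3 probes gave -1.33 to -1.99. Col8a2, a chain of the hexagonal lattice of corneal and vessel matrix, read -4.55 and -3.83, -3.10 and -3.18, -3.08 and -1.97, and -3.44 and -2.39, lowest in PN_control. Only 1 array each of PN_control and SN_control was well above background for Col8a2, so its probe stayed in for testing only through the NFIA groups. Col20a1, a FACIT member, read -2.24 and -1.72, -2.17 and -1.53, -2.20 and -1.22, and -1.38 and -1.43, with 2 probes of opposite sign for NFIA (0.22 and -0.19).

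The genes that build and bind collagen were tested in the same fits. Of 22 tested maturation genes (prolyl and lysyl hydroxylases, chaperones and export factors), 1 passed in any comparison: Plod1, a lysyl hydroxylase, rose with passage over both cell types by 1.51 (adjusted p = 0.0184), where 3.44% of all genes passed as higher. Median differences of the list were 0.59 and 0.39 for NFIA in primary and secondary neurospheres and 0.38 and 0.21 for passage in control and NFIA cells.

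Of 12 processing and crosslinking genes, Loxl1, a lysyl oxidase of elastic fibres, rose with passage in control cells by 2.29 (adjusted p = 0.0322), in NFIA cells by 1.96 (adjusted p = 0.0394) and with NFIA over both passages by 1.30 (adjusted p = 0.0284). It read -2.20 and -2.77, -0.97 and -1.05, -0.43 and 0.05, and 0.75 and 1.14 in the order of groups, a step at each group with no overlap. Adamts2, the protease that trims fibrillar procollagen, rose with passage over both cell types by 2.42 (adjusted p = 0.0303). These were the only 2 of the list past the test in any of the 7 comparisons: 2 of 12 for passage over both cell types and 1 of 12 in control cells, in NFIA cells and for NFIA over both passages, where 3.44%, 0.682%, 0.501% and 1.81% of all genes passed as higher.

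Of 7 collagen receptors, Itga11, the integrin chain that binds fibrillar collagen on fibroblasts, rose with passage in control cells by 4.97 (31.3-fold, adjusted p = 0.0247), 1 of 7 where 0.682% of all genes passed as higher. Of 4 small proteoglycans that coat collagen fibrils, Lum rose by 3.64 in that comparison (adjusted p = 0.0182) and Dcn by 3.16 over both cell types (adjusted p = 0.0149), 1 of 4 in each. Of all genes, 0.682% passed as higher in control cells and 3.44% over both cell types. Lum read -0.77 and -1.06 in PN_control and 2.35 and 3.09 in SN_control, but -0.52 and 0.10 in PN_NFIA and -0.04 and 0.88 in SN_NFIA.

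Of 15 partners of type IV collagen in the basement membrane, 3 rose with passage in control cells, Lama2, Lama4 (at least 6.20-fold) and Nid1, the linker of laminin and type IV collagen, where 0.682% of all genes passed as higher. For NFIA, Nid1 rose by 3.42 in primary neurospheres (adjusted p = 0.0459), Lamb2 by 2.05 in secondary neurospheres (adjusted p = 0.0300) and Lama5 by 1.74 over both passages (adjusted p = 0.0270), 1 of 15 in each, where 0.305%, 0.464% and 1.81% of all genes passed as higher. Nid1 read -0.13 and -0.73, 3.03 and 2.95, 2.31 and 3.68, and 4.14 and 4.04, with PN_control below all other arrays. None of the 15 passed as lower in any of the 7 comparisons.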

How the data were processed

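The RNA (50 ng per labelling) was labelled with Cy3 and read on Agilent arrays of 1 colour. The deposited intensity values (processed signal, median signal and median background per spot) and quality flags were made with Feature Extraction 10.5.1.1, per the file headers, while the submitters' processing notes name 10.7.3.1. The deposited log2 values of the series' value table have a scaling and centring that are not given in the sources used here; they served to place the arrays and as an alternative.

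Log2 of the processed signal minus the 75th percentile of each array was fitted with limma 3.58.1 (R 4.3.3), all 4 groups sharing the spread, with Benjamini-Hochberg adjustment over 13785 genes. Flagged outlier spots were left out, and the brightest kept probe stood for its gene. A difference is given as mean ± SE (n = 2 arrays a group), and the number of arrays limits its precision; where a group was not well above background on any array, a bound is given. The code was tested on simulated data. Python 3.11.15 with pandas 2.3.3, numpy 2.4.6 and matplotlib 3.10.9 made the tables and figures.

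Members and gene lists were chosen with earlier results of these data known. Values on every array are given for members past the test in any comparison, for the 4 members of each class with the smallest p over both passages or both cell types, and for type I to IV, VI and XVIII examples fixed with the design; other lists are named where they passed. Probe names came from RefSeq accessions (GRCm38.p6), whereas the arrays' own design grid is on mm9. For the normexp alternative, the median signal replaced the mean signal that the plan named, because the files used here hold the former. Alternatives were other background, scaling, filter and probe rules, the value table, sample labels, replicate blocks and leaving out each array. Some genes of the lists are not reported here.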

Additional observations from a re-analysis of the deposited data

Results flagged for a closer look

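Of the 12 collagens that were not tested, 3 were well above background on an NFIA array and on no control array. Col6a5, a beaded filament chain, read -2.41 on SN_NFIA 1, Col13a1, a transmembrane collagen, read -3.998 on PN_NFIA 1 and -3.08 on SN_NFIA 1, and Col28a1 read -3.39 on SN_NFIA 1, in log2 of the signal minus the 75th percentile of the array. The other array of the same group was not well above background for any of these 3. The SN_control arrays read Col13a1 at -3.93 and -3.82, values that were not well above background but exceed the -3.998 of PN_NFIA 1. Col9a3, a FACIT member, was well above background on SN_control 2 alone, at -3.04. In limma fits without the filter on dim probes, Col28a1 was 1.64 higher in NFIA cells over both passages (adjusted p = 0.0294), on values of which all but 1 were not well above background; the other 11 did not pass in any of the 7 comparisons.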

How the results depend on the processing

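The counts of collagens past the test were 2 for NFIA in primary neurospheres, 1 in secondary neurospheres, 2 over both passages, 0 for the difference between passages, 12 for passage over both cell types, 6 in control cells and 2 in NFIA cells. All but the difference, 0 throughout, were 0 with the arrays as attached, with groups from the source names, and without both NFIA arrays described as wild type. Without the filter on dim probes they were 0, 0, 3, 0, 4, 4 and 0 in the same order, the 3 including Col28a1, which was otherwise not tested. With normexp they were 1 in primary neurospheres and 1 over both passages, and with quantile scaling 0 in primary neurospheres. Fits of the groups compared alone gave 4 in primary and 0 in secondary neurospheres and 0 for passage in each cell type. Of all 13785 genes these fits passed 150 in primary and 0 in secondary neurospheres, and 0 for passage in control and 12 in NFIA cells. Same-numbered arrays deviated together within a passage (correlation of deviations 0.445 in primary and 0.484 in secondary neurospheres) but not across passages (-0.188 to 0.042), and nothing in the labels ties a number to a culture, so the numbers were not taken as pairs, and whether they pair arrays within a passage is not settled. The replicate block gave 1 in primary neurospheres and 10 for passage in control cells (Col1a2, Col4a1, Col4a2 and Col23a1 newly past the test), and a block within each passage gave 3 in secondary neurospheres, where Col15a1 (1.95, adjusted p = 0.0299) and Col2a1 (-1.46, adjusted p = 0.0383) joined Col27a1 and 654 genes passed in place of 121; Col15a1 also passed in primary neurospheres (adjusted p = 0.0349). With the numbers crossed, a setting chosen after the data were seen, passage in control cells had 5 collagens and 108 genes past the test. Leaving out 1 array at a time gave 0 to 3, 0 to 2, 0 to 6, 0 to 0, 0 to 9, 2 to 8 and 0 to 4, and changed the sign of none of the 25 calls. The other planned settings, including the value table and the mean of probes, kept every count within 1.5 times its value.

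Of the 25 calls, signs turned under the relabellings, where no gene of any kind passed in any comparison, and under no other setting run. With the source names, 6 of 30 collagens were positive for NFIA in primary neurospheres (median -0.73, against 28 and 1.18), and with the arrays as attached 10 of 28 were positive for passage over both cell types (median -0.24, against 26 of 30 and 1.22). With the arrays as attached, Col27a1 stood at -0.92 for NFIA in secondary neurospheres, -0.57 over both passages, -0.72 for passage in NFIA cells and -0.37 over both cell types. Col6a2 stood at -0.18 for passage in NFIA cells and -0.078 over both cell types, Col5a1 at -0.0020 over both cell types and -0.040 in control cells, Col5a3 at -0.92 and -0.87, and Col1a1 at -0.51 and Col16a1 at -0.50 over both cell types. With the source names, NFIA minus control was -2.14 for Col6a1 and -1.66 for Col6a2 in primary neurospheres, -1.75 for Col27a1 in secondary neurospheres, and -1.17 for Col27a1 and -1.69 for Col15a1 over both passages. Median scaling set the median of all genes at -0.34 for NFIA in primary neurospheres and -0.39 for passage in control cells, and 24 collagens were then positive in each. The share of higher calls for passage in control cells was 87.0%, and 69.4% with median scaling, 73.6% with quantile scaling and 73.3% with normexp. It was 48.5% and 33.6% (median scaling) for passage over both cell types, 52.9% and 74.2% (normexp) for NFIA in secondary neurospheres, and 30.1% and 47.3% (normexp) for passage in NFIA cells. Genes past the test for NFIA in primary neurospheres numbered 42, and 7 with normexp, 19 with quantile scaling, 150 with the 2 groups alone and 0 without the filter. The cause was not tested.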
